A study of Homo sapiens with 6 samples.

Results

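The genes of 10 S100 calcium-binding proteins were followed in human respiratory epithelial cells treated with transforming growth factor-beta 1 (TGF-β1), namely S100A2, S100A4, S100A6, S100A8, S100A10, S100A11, S100A13, S100A14, S100A16 and S100P. The members were taken by gene symbol and make up 10 of the 25737 entries in each count table, with 1 entry per member. Cultures of A549, a line derived from a lung carcinoma, and of BEAS-2B, an immortalized line of bronchial epithelium, were given TGF-β1 at 0, 1 or 5 ng/mL and collected after 48 h. The mRNA was read from its 3′ ends, and each of the 6 conditions had 1 library. The treated cells were kept in medium with a lowered serum content, and for the untreated cells the labels give no medium, so a difference in serum cannot be told apart from TGF-β1.

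S100 proteins are small, mostly dimeric proteins that carry a pair of EF-hands, the helix-loop-helix folds that bind calcium. Calcium opens a surface on the dimer with which it binds partners such as annexins, cytoskeletal proteins and p53, and some members are also released and act on receptors outside the cell. Most of the family lies in a gene cluster on chromosome 1, and the levels of its members are known to vary widely between epithelia, fibroblasts and myeloid cells. TGF-β1 drives the epithelial-mesenchymal transition, in which epithelial cells lose junction proteins and gain matrix and fibroblast genes.

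Total counts ranged from 4120624 to 7841350 per library. As every condition had 1 library, each comparison sets 1 library against another, so no p-values are given and no test was made. Intervals in brackets are exact 95% Clopper-Pearson intervals of a ratio of counts, which cover counting error only and not the spread between cultures. Where 2 such ratios are divided by each other, the 95% interval is a normal approximation on the log scale. Known TGF-β1 target genes were checked beside the members. TGFBI, which encodes a matrix protein, was 7.64-fold higher at 5 ng/mL than in the control in A549 and 6.08-fold higher in BEAS-2B, and the fibronectin gene FN1 was 2.92-fold and 15.6-fold higher. SKIL, a feedback regulator of the pathway, was 2.52-fold and 3.58-fold higher. SMAD7, another feedback regulator, was 8.88-fold higher in BEAS-2B, where it reached the minimum level set for a call only in the treated libraries. In A549 it had 24, 95 and 132 counts at 0, 1 and 5 ng/mL, higher with treatment but below that minimum. The markers of the labelled cell types were found only in part. In untreated A549 cells, CDH1, which encodes E-cadherin, had 640 counts, and the surfactant genes SFTPA1 and SFTPC of alveolar type II cells had 0 counts in every library. In BEAS-2B cells CDH1 had at most 2 counts and EPCAM, a general epithelial gene, had 0, and the basal cell genes KRT5 and KRT14 had at most 1, while the epithelial keratin KRT18 had 1418 counts without treatment.

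The stretch of 250 bases before the gene start is shown for the 5 members called changed in at least 1 line that have 1 start in the promoter table, so that members with opposite responses can be read side by side. The sequences are from RefSeq on build GRCh38.p14, run 5′ to 3′ on the strand of the gene, and lie at chr1:153535992-153536241 (S100A6, minus strand), chr1:153545807-153546056 (S100A4, minus), chr4:6693628-6693877 (S100P, plus), chr1:152037005-152037254 (S100A11, minus) and chr1:151993860-151994109 (S100A10, minus). Capitals mark every match, on either strand, of 6 short motifs, and neighbouring or overlapping matches run together.
S100A6: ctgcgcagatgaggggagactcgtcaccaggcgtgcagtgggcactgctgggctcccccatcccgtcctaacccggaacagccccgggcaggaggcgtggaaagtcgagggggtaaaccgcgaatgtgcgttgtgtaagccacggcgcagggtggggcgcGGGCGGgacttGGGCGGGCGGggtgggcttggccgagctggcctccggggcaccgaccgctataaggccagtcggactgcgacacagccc
S100A4: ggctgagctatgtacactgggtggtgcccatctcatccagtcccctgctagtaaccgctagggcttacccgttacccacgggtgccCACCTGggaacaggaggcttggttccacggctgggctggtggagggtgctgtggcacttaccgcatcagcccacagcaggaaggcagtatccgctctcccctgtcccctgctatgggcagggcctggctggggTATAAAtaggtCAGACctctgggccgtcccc
S100P: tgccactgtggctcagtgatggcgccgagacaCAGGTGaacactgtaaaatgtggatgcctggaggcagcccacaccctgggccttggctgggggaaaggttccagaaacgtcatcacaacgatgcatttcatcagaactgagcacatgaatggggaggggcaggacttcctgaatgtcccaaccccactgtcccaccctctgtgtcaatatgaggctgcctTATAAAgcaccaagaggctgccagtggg
S100A11: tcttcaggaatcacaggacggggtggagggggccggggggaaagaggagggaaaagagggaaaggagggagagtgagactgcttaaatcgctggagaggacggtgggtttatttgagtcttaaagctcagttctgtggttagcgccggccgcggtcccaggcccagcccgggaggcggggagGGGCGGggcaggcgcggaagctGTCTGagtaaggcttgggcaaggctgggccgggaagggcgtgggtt
S100A10: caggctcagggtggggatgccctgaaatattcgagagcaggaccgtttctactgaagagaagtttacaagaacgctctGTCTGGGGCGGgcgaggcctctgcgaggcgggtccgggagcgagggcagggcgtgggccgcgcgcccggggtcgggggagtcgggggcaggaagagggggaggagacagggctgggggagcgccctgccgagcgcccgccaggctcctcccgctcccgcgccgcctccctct

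The motifs were TGANTCA (bound by AP-1), CAGGTG (an E-box bound by SNAI and ZEB factors), CAGAC (the SMAD box), TATAAA (the TATA box), TGACNNNGC (the core of the antioxidant response element) and GGGCGG (the GC box). The stretch of S100A6 held 3 GC boxes, of which a pair overlapped, and no match of the other motifs. S100A4 held an E-box at position -164, a TATA box at -31 and a SMAD box at -20, counted from the gene start, and S100P held an E-box at -218 and a TATA box at -28. S100A11 and S100A10 each held 1 SMAD box and 1 GC box. Of all 35116 promoter stretches of this length, 6.6% held TGANTCA, 17.5% CAGGTG, 38.0% CAGAC, 10.7% TATAAA, 10.9% TGACNNNGC and 42.6% GGGCGG. All 10 members were found in the promoter table, with 16 starts in all, and a match describes the letters only.

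S100A6, or calcyclin, binds the ubiquitin ligase adaptor CACYBP and several annexins, and it was the most abundant member by counts in the untreated libraries of both lines. In A549 cells its counts were 10112, 2947 and 1681 at 0, 1 and 5 ng/mL. After scaling to a common library size these were 11716, 2025 and 1525 normalized counts. In BEAS-2B cells S100A6 had 3231, 395 and 369 counts, or 3604, 444.5 and 465 normalized counts. Both treated libraries of each line thus lay far below their control, and within BEAS-2B the 2 doses did not differ beyond counting error. At 5 ng/mL S100A6 was 7.68-fold lower than in the control in A549 (7.30 to 8.09) and 7.75-fold lower in BEAS-2B (6.96 to 8.66). The ratio of these responses was 1.01 (0.896 to 1.14).

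S100A4, also called fibroblast-specific protein, binds the heavy chain of non-muscle myosin and is widely used as a marker of fibroblasts and of epithelial-mesenchymal transition. In A549 cells it had 3493, 2289 and 1406 counts at 0, 1 and 5 ng/mL, which are 4047, 1573 and 1276 normalized counts. In BEAS-2B cells it had 18, 0 and 4 counts. The level in A549 was therefore lower at each higher dose, while BEAS-2B held few transcripts at any dose. At 5 ng/mL S100A4 was 3.17-fold lower than in the control in A549 (2.98 to 3.38). In BEAS-2B the ratio rested on 4 against 18 counts (3.99-fold lower, 1.31 to 16.2). At 1 ng/mL, with 0 against 18 counts, the exact interval began at 4.36-fold lower. With the count of 0 taken to allow 3 counts S100A4 was 5.95-fold lower there, a value that leaves out counting error. Of 4 other mesenchymal markers, 2 were measurable in A549 and 3 in BEAS-2B at 5 ng/mL. CDH2, which encodes N-cadherin, was called higher in both lines (3.76-fold and 2.47-fold). Of all genes tested, 16.1% were called higher in A549 and 7.33% in BEAS-2B. VIM, which encodes vimentin, was not called in either, at a log2 FC of 0.56 and 0.54. PDGFRB, measurable in BEAS-2B alone, was not called there, at 131.6 normalized counts in the control and 201.5 at 5 ng/mL.

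S100P binds ezrin and is expressed in placenta and in many carcinomas. It had 303 counts in untreated A549 cells, 8 at 1 ng/mL and 2 at 5 ng/mL. In the 3 BEAS-2B libraries it had 0 counts, which allows up to 0.728 CPM (counts scaled to the library total) in the shallowest of them. S100P was thus near 0 in the treated A549 cells and was not detected in BEAS-2B at this depth. The decrease in A549 was 63.9-fold at 1 ng/mL (32.0 to 149) and 194-fold at 5 ng/mL (53.1 to 1605), and the size of the latter rests on 2 counts.

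The epithelial genes moved with these 3 members in A549. CDH1 had 640, 30 and 8 counts and EPCAM 49, 7 and 2 counts at 0, 1 and 5 ng/mL, and the summed normalized count of the 5 epithelial genes examined was 24834, 11182 and 10461. At 5 ng/mL 3 of the 5 were measurable in A549, and EPCAM was below the minimum. CDH1 and KRT8 were called lower, where 17.1% of all genes tested were. CDH1 reached the minimum only in the control of this comparison, so it could only be called lower. KRT18, the most abundant, was not called, at 16906 normalized counts in the control and 8818 at 5 ng/mL. In BEAS-2B CDH1 and EPCAM were near 0 in every library, KRT8 had 415, 229.5 and 220.4 normalized counts and KRT18 had 1582, 807 and 1015, and the sum over the list was 2050.1, 1042 and 1262. The part of these markers in the decrease of S100A6, S100A4 and S100P was not tested. In bulk libraries, fewer cells of a type and less RNA per cell cannot be told apart.

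**Figure D1:**
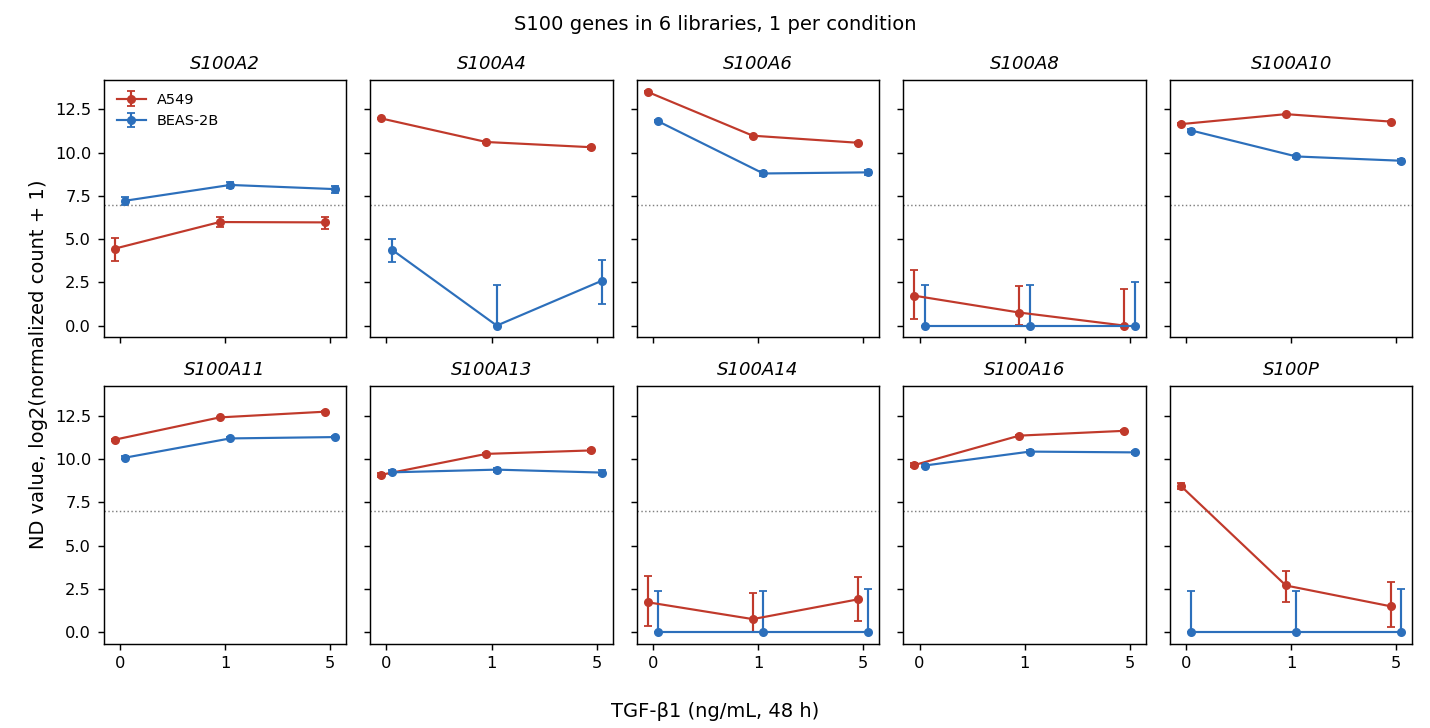
ND value, log2 of the normalized count plus 1, of the 10 S100 genes (y) against the TGF-β1 concentration in ng/mL (x, evenly spaced), with A549 and BEAS-2B as separate lines, 1 library per point and exact 95% Poisson intervals as bars; the dotted line is an ND value of 7. S100A6 is lower at both doses in both lines (13.52 to 10.58 in A549 and 11.82 to 8.86 in BEAS-2B from 0 to 5 ng/mL), S100A11 is higher in both, and S100A10 separates the lines.

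S100A11, or calgizzarin, binds annexin A1 and was called higher in both lines at both doses. In A549 cells it had 1937, 7991 and 7603 counts at 0, 1 and 5 ng/mL, or 2244, 5490.2 and 6898 normalized counts. In BEAS-2B cells it had 979, 2100 and 1980 counts, or 1092, 2363 and 2494 normalized counts. All treated libraries lay above the control of their line, and A549 lay above BEAS-2B at every dose. At 5 ng/mL S100A11 was 3.07-fold higher in A549 (2.92 to 3.23) and 2.28-fold higher in BEAS-2B (2.11 to 2.47). At 1 ng/mL the increase was 2.45-fold in A549 (2.33 to 2.57) and 2.16-fold in BEAS-2B (2.01 to 2.34), and under scaling by total counts the latter fell just short of a 2-fold change, at a log2 difference of 0.99, and it was also not called with the trend over transcript length removed. S100A11 has the named pseudogenes S100A11P1 and S100A11P2, and how reads shared with them were counted is not given in the sources used here.

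S100A16 is a broadly expressed member. In A549 cells it had 700, 3847 and 3531 counts at 0, 1 and 5 ng/mL, or 811, 2643 and 3204 normalized counts. In BEAS-2B cells it had 714, 1237 and 1071 counts, or 796, 1392 and 1349 normalized counts. The untreated lines held nearly the same level of S100A16, and every treated library lay above its control. The increase at 5 ng/mL was 3.95-fold in A549 (3.64 to 4.29) and 1.69-fold in BEAS-2B (1.54 to 1.87).

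S100A13 takes part in the release of FGF1 and IL1A, which leave the cell without a signal peptide. It had 474, 1849 and 1609 counts in A549 cells, or 549.2, 1270.4 and 1459.8 normalized counts. In BEAS-2B cells it had 543, 600 and 476 counts, or 606, 675 and 599.6 normalized counts. S100A13 was thus higher with treatment in A549 alone of these 2 lines, by 2.66-fold at 5 ng/mL (2.40 to 2.95), against a ratio of 0.990 in BEAS-2B (0.873 to 1.12). S100A13 shares part of its locus with S100A1 on the opposite strand, which had at most 3 counts in any library.

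S100A2, an epithelial member that binds p53, had 18, 91 and 68 counts in A549 cells, or 20.85, 62.5 and 61.7 normalized counts. In BEAS-2B cells it had 133, 249 and 188 counts, or 148, 280.2 and 237 normalized counts. It was higher in every treated library than in its control, at a low level in A549. At 5 ng/mL the ratio was 2.96 in A549 (1.74 to 5.29), below the minimum level set for a call, and 1.60 in BEAS-2B (1.27 to 2.01).

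S100A10, or p11, has lost calcium binding, pairs with annexin A2 and promotes plasminogen activation at the cell surface. In A549 cells it had 2779, 6995 and 3928 counts at 0, 1 and 5 ng/mL, or 3219.8, 4806 and 3564 normalized counts. In BEAS-2B cells it had 2235, 782 and 588 counts, or 2493, 879.9 and 741 normalized counts. The lines started at similar levels and parted with treatment. In BEAS-2B S100A10 was 2.83-fold lower at 1 ng/mL (2.61 to 3.08) and 3.37-fold lower at 5 ng/mL (3.07 to 3.69). In A549 it was 1.49-fold higher at 1 ng/mL (1.43 to 1.56) and 1.11-fold higher at 5 ng/mL (1.05 to 1.16). The small difference at 5 ng/mL in A549 changed its sign under other scalings, with a log2 difference of 0.15 becoming -0.06 under total counts and -0.08 after removal of the trend over GC content.

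S100A8 and S100A14 were near 0 throughout. S100A8, which forms calprotectin with S100A9 in myeloid cells, had 2, 1 and 0 counts in A549, and S100A14, an epithelial member, had 2, 1 and 3. Both had 0 counts in the 3 BEAS-2B libraries. At this depth no change of S100A8 or S100A14 was detectable. Of 6 leukocyte and myeloid genes, MPO, CSF3R and FCGR3B had 0 counts in every library, and CD14 had 57, 24 and 14 counts in A549 and 24, 3 and 2 in BEAS-2B.

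To set the members beside the whole transcriptome, a gene was called when its fold change (FC) reached 2 and its normalized data (ND) value, log2 of the normalized count plus 1, reached 7 in 1 or both of the libraries compared. This minimum corresponds to a normalized count of 127, and a gene that reaches it in the control alone, as S100P did in A549, is measurable only because it was high there. At 5 ng/mL 7 of the 10 members reached the minimum in A549. Of these, 3 were called higher (S100A11, S100A13 and S100A16) where 16.1% of all 7115 genes tested were, and 3 were called lower (S100A4, S100A6 and S100P) where 17.1% were. Only S100A10 of the 7 was not called. The members' median log2 FC was 0.15, which is the value of S100A10, against 0.11 over all genes tested.

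In BEAS-2B 6 members reached the minimum at 5 ng/mL. S100A11 was called higher, where 7.33% of 6735 genes were, and S100A6 and S100A10 were called lower, where 11.6% were. S100A2, S100A13 and S100A16 were not called, and the members' median log2 FC was 0.33, against 0.03 over all genes tested. Fewer genes were called in BEAS-2B than in A549 in the whole transcriptome as well.

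The 1 ng/mL libraries gave calls of the same member names as 5 ng/mL in both lines, but they share the control library with the 5 ng/mL comparison. In A549 3 of 7 members were again called higher, where 10.9% of 7007 genes were, and 3 lower, where 12.6% were. In BEAS-2B 1 of 6 was called higher, where 5.66% of 6681 genes were, and 2 lower, where 9.13% were. The median log2 FC of the members tested was 0.58 in A549 and 0.48 in BEAS-2B, against 0.09 and 0.01 over all genes tested.

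**Figure D2:**
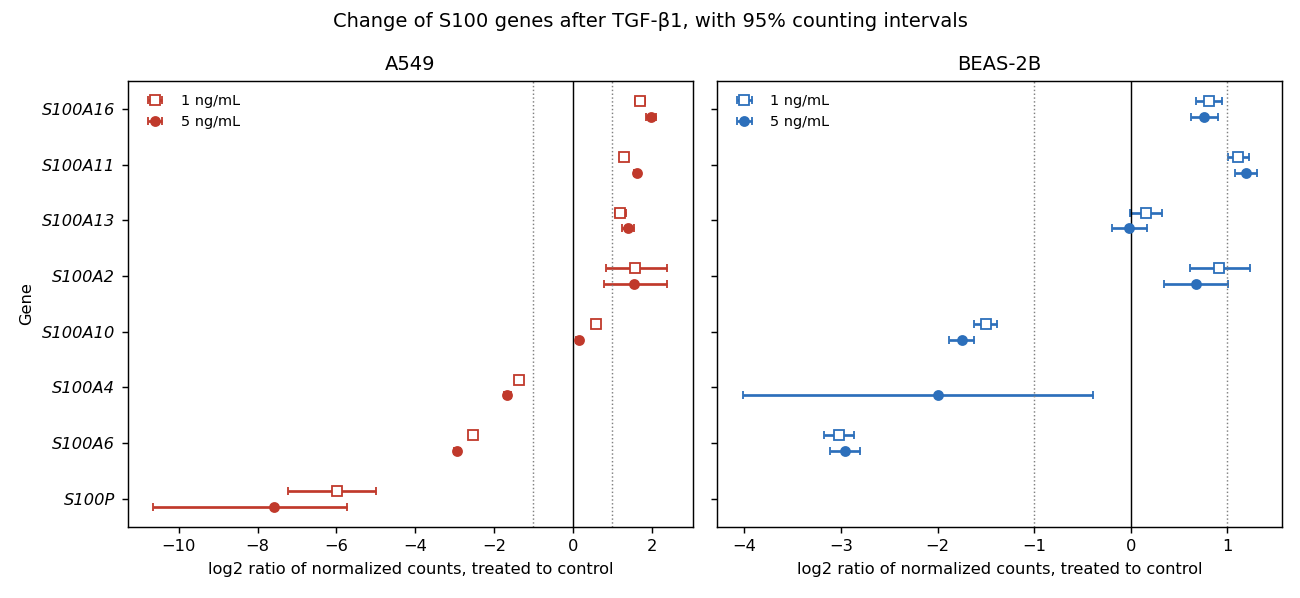
Log2 ratio of treated to untreated normalized counts (x, with exact 95% counting intervals) for each member (y) with a count above 0 in both libraries and 10 or more in the larger, in A549 and BEAS-2B at 1 and 5 ng/mL, 1 library per condition and with a separate x range for each line and dotted lines at a 2-fold change. S100A6 lies at about the same place in both lines, and S100A10 lies right of 0 in A549 and left of 0 in BEAS-2B.

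Between 1 and 5 ng/mL the members differed little. None of the 6 members measurable in A549 was called in this comparison, where 1.61% of 6467 genes were called higher and 1.79% lower, and none of 6 in BEAS-2B, where 0.492% of 6306 genes were called higher and 0.412% lower. In A549 the step from 1 to 5 ng/mL nevertheless exceeded counting error for S100A6 (a ratio of 0.753, 0.709 to 0.800), S100A10 (0.742, 0.713 to 0.771) and S100A4 (0.811, 0.759 to 0.867). It ran the other way for S100A11, at a ratio of 1.26 (1.22 to 1.30), for S100A16, at 1.21 (1.16 to 1.27), and for S100A13, at 1.15 (1.07 to 1.23). In BEAS-2B the ratio of S100A6 was 1.05 (0.905 to 1.21) and that of S100A11 was 1.06 (0.992 to 1.12), with 1 inside both intervals. S100A10 in BEAS-2B was lower again, at 0.842 (0.755 to 0.938).

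The untreated lines differed most in S100A4 and S100P. S100A4 was 202-fold higher in A549 than in BEAS-2B (127 to 341). S100P had 303 against 0 counts, and the exact interval of its ratio began at 84.8-fold higher in A549. S100A6 was 3.25-fold higher (3.12 to 3.38) and S100A11 2.06-fold higher (1.90 to 2.22) in A549, whereas S100A2 was 7.11-fold lower (4.33 to 12.4). S100A10, S100A16 and S100A13 differed less than 2-fold, with A549 to BEAS-2B ratios of 1.29 (1.22 to 1.37), 1.02 (0.916 to 1.13) and 0.907 (0.800 to 1.03). Of the 8 members that reached the minimum, 4 were called higher in A549, where 18.1% of 7329 genes were, and 1 was called lower, where 18.9% were. S100A4, S100P and S100A2 reached it only in the line in which they were high, and with the minimum required in both libraries 2 calls were left, S100A6 and S100A11. S100A2 was also not called after thinning to the smallest library or with a minimum of 8. The call of S100A11 was lost with an FC limit of 3 and, at a log2 difference of 0.76, when the trend over transcript length was removed, an alternative added after seeing the data.

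The response to 5 ng/mL was then compared between the lines as a ratio of ratios, in members with at least 10 counts in each of the 4 libraries. The responses differed at least 2-fold, with an interval that leaves out 1, in 3 of the 6 members that qualified, against 22.1% of 10272 genes. S100A10 responded 3.73-fold higher in A549 than in BEAS-2B (3.36 to 4.13), S100A13 2.69-fold higher (2.29 to 3.15) and S100A16 2.33-fold higher (2.06 to 2.64). The ratio was 1.85 for S100A2 (1.05 to 3.26) and 1.35 for S100A11 (1.23 to 1.48). S100A6 alone among the 6 gave a ratio with 1 inside the interval.

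Because the members of a library share its depth and scaling, ratios of their counts within a library do not depend on the scaling. They are ratios of reads from 3′ ends, not divided by transcript length, so their change between libraries is the quantity of interest. In A549 S100A11 had 0.192, 2.71 and 4.52 reads per read of S100A6 at 0, 1 and 5 ng/mL. In BEAS-2B these values were 0.303, 5.32 and 5.37. S100A6 thus outnumbered S100A11 in both controls and was outnumbered in all 4 treated libraries. The ratio of S100A11 to S100A6 was 23.6-fold higher than in the control in A549 (22.0 to 25.4) and 17.7-fold in BEAS-2B (15.5 to 20.2) at 5 ng/mL. The ratio of S100A16 to S100A6 changed 30.3-fold (27.6 to 33.4) and 13.1-fold (11.4 to 15.2). The ratio of S100A11 to S100A10 changed 2.78-fold in A549 (2.59 to 2.98) and 7.69-fold in BEAS-2B (6.83 to 8.66).

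**Figure D3:**
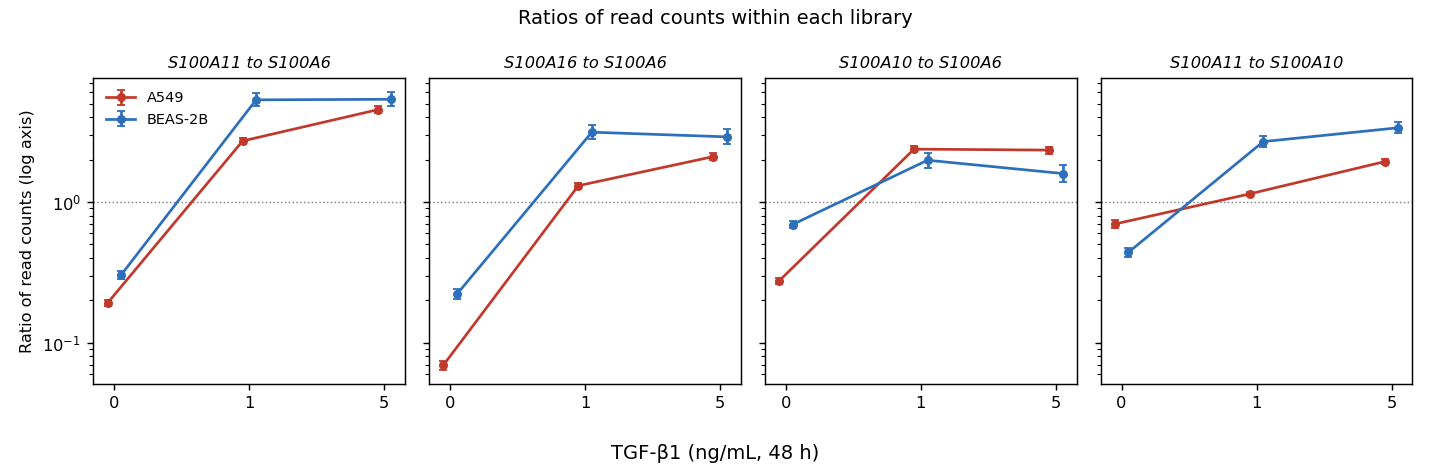
Ratio of counts of pairs of S100 genes within each library (y, log scale, with exact 95% counting intervals) against the TGF-β1 concentration in ng/mL (x, evenly spaced), with A549 and BEAS-2B as separate lines. The ratio of S100A11 to S100A6 goes from 0.192 to 4.52 in A549 and from 0.303 to 5.37 in BEAS-2B.

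Summed over the 10 members, S100 reads made up 0.478%, 0.332% and 0.325% of the A549 libraries at 0, 1 and 5 ng/mL, and 0.185%, 0.117% and 0.113% of the BEAS-2B libraries. S100A6 supplied 51.0% of these member reads in untreated A549 and 8.48% at 5 ng/mL, and 41.1% and 7.89% in BEAS-2B. The lower sum with treatment thus went with a smaller share of S100A6.

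All members but S100P, which is on chromosome 4, lie in the cluster on chromosome 1 and are transcribed from the minus strand in the GENCODE v29 annotation. Not all neighbors there responded alike. S100A10 and S100A11 are the first pair of S100 genes at one end of the cluster, and they went in opposite directions in BEAS-2B. S100A6 and S100A4, both lower in A549, are separated only by S100A5, and S100A16 and S100A13, both higher in A549, only by S100A14. S100A3, which overlaps S100A4 on the same strand, had 43, 77 and 69 counts in A549 and at most 7 in BEAS-2B. Of 6 genes inside or flanking the cluster that are no S100 genes, 4 were measurable at 5 ng/mL: GATAD2B was called higher in A549, where 16.1% of all genes were, and ILF2 lower in BEAS-2B, where 11.6% were.

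**Figure D4:**
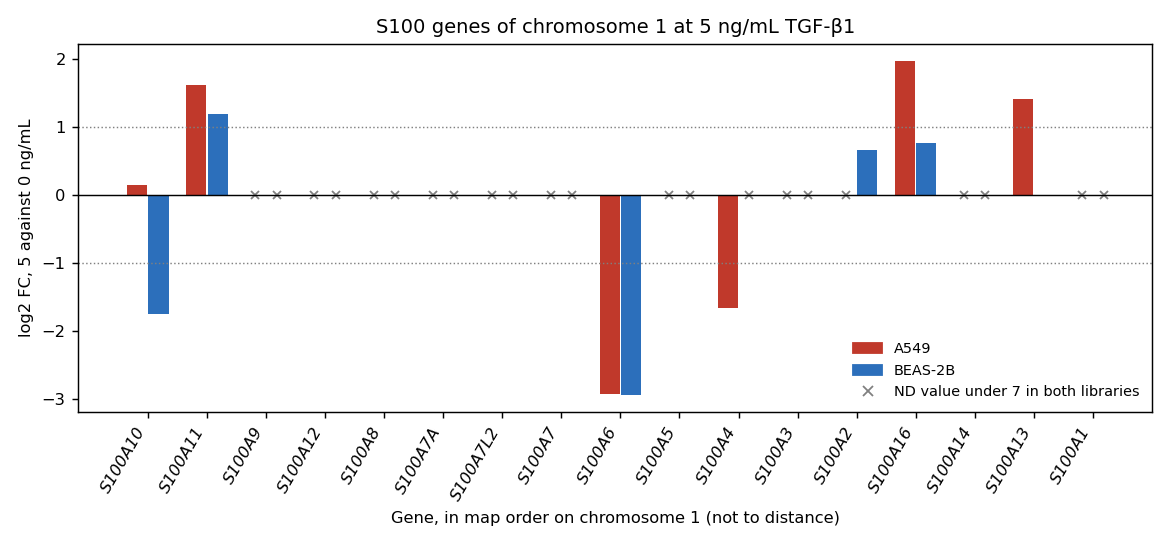
Log2 FC at 5 ng/mL (y) of the S100 genes of the chromosome 1 cluster in map order (x, by rank and not to scale), in A549 and BEAS-2B, 1 library per condition, with crosses for genes under an ND value of 7 in both libraries and dotted lines at a 2-fold change. S100A10 and S100A11 stand next to each other and point in opposite directions in BEAS-2B.

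No other S100 gene was measurable. The remaining 11 single S100 genes had no entry at the minimum in any comparison, and 6 of them (S100A7A, S100A7L2, S100A12, S100B, S100G and S100Z) had 0 counts in every library. S100A9, the partner of S100A8, had 15, 5 and 6 counts in A549 and 3, 0 and 0 in BEAS-2B. The 7 genes of the fused type, such as FLG of the skin barrier, were also below the minimum.

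The partners at the membrane were described next, since S100A10 and S100A11 act through annexins. Of 9 genes in this list, 8 were measurable in A549 at 5 ng/mL. ANXA6 (3.38-fold, 2.90 to 3.94) and ANXA11 (2.12-fold, 1.95 to 2.31) were called higher, and ANXA4 (15.3-fold, 13.3 to 17.6) and ANXA5 (2.24-fold, 1.93 to 2.59) lower, where 16.1% and 17.1% of all genes tested were called higher and lower, and the median log2 FC was -0.40 against 0.11 over all genes. In BEAS-2B 7 were measurable, with 0 called higher and 3 called lower, where 7.33% and 11.6% of all genes were, and the median log2 FC was -0.92 against 0.03. These were the S100A11 partner ANXA1 (4.85-fold, 3.76 to 6.34), the S100A10 partner AHNAK (5.31-fold, 4.78 to 5.92) and the S100P partner EZR (2.08-fold, 1.91 to 2.27). In this comparison ANXA1 reached the minimum only in the control, so it could only be called lower.

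ANXA2, which forms a tetramer with S100A10, had 11242, 21837 and 22054 normalized counts in A549 and 12019, 10377 and 8076 in BEAS-2B at 0, 1 and 5 ng/mL. At 5 ng/mL its ratio to the control was 1.962 in A549 (1.92 to 2.01) and 0.672 in BEAS-2B (0.651 to 0.693), so that it was not called in either line. Its values were on the same side of the control as those of S100A10 in each line. For S100A10 in A549 at 5 ng/mL, however, that side changed under other scalings. S100A11 and ANXA1 were on opposite sides in BEAS-2B, where S100A11 was higher and ANXA1 lower. In A549, where S100A11 was also higher, ANXA1 was not called. Its ratio to the control there was 0.757 at 5 ng/mL (0.713 to 0.804) and 1.275 at 1 ng/mL (1.21 to 1.34).

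Among 10 cytoskeletal and intracellular partners, 8 were measurable in each line at 5 ng/mL. In A549 MYH9, the myosin chain bound by S100A4, was called higher (2.04-fold, 1.90 to 2.18) and CACYBP, the partner of S100A6, lower (2.16-fold, 1.92 to 2.43). These are 1 of 8 in each direction, where 16.1% and 17.1% of all genes were called, and the median log2 FC was 0.29 against 0.11 over all genes. In BEAS-2B FGF1, the growth factor released with S100A13, was called higher, at 2, 120 and 113 counts across the doses. It reached the minimum only in the treated libraries, where it was high, so it could only be called higher. It was 1 of 8, where 7.33% of all genes were called higher, with 0 called lower, and the median was -0.11 against 0.03. FGF1 had 0, 18 and 38 counts in A549 and stayed below the minimum there. CACYBP in BEAS-2B was 1.99-fold lower (1.73 to 2.30), just short of a call.

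Of 6 receptor genes, 3 were measurable at 5 ng/mL, and SCARB1, a scavenger receptor, was called lower in both lines, by 2.79-fold in A549 (2.39 to 3.26) and 2.52-fold in BEAS-2B (1.97 to 3.25). This is 1 of 3 in each line, where 17.1% and 11.6% of all genes were called lower. In BEAS-2B SCARB1 reached the minimum only in the control of this comparison, so there it could only be called lower. AGER, which encodes RAGE, and TLR4, the receptor of calprotectin, were below the minimum. Of 12 genes of other EF-hand proteins, 11 were measurable in each line. CALU, which encodes calumenin, was called higher in both (2.24-fold and 2.06-fold), and CAPNS1, a calpain subunit, in A549 (2.30-fold). CALM2 was called lower in A549 (3.77-fold), and CALM3 (2.41-fold) and RCN1 (3.01-fold) in BEAS-2B. These are 2 higher and 1 lower of 11 in A549, where 16.1% and 17.1% of all genes were called, and 1 higher and 2 lower of 11 in BEAS-2B, where 7.33% and 11.6% were. The median log2 FC of this list was -0.04 in A549 and -0.43 in BEAS-2B, against 0.11 and 0.03 over all genes.

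**Figure D5:**
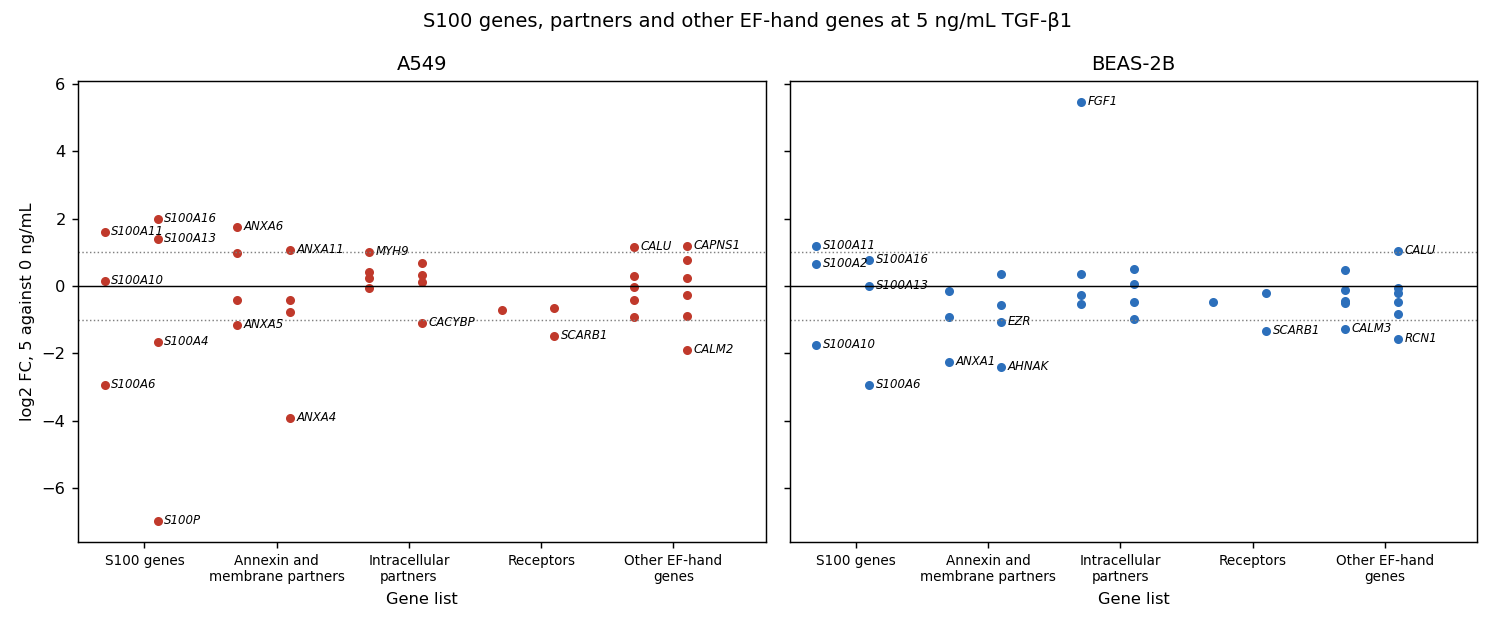
Log2 FC at 5 ng/mL (y) of the measurable members, annexin and membrane partners, intracellular partners, receptors and other EF-hand genes (x, gene list), in A549 (left) and BEAS-2B (right), 1 point per gene. Dotted lines mark a 2-fold change, genes past it and all members are named, and ANXA4 in A549 and FGF1 in BEAS-2B lie farthest from 0 outside the S100 genes.

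Transcript length and base composition were looked at because the members are short. Their longest transcripts span 523 to 1279 nucleotides, with a GC content of 50.1% to 60.2%. In genes in the same range of length the median log2 FC was 0.09 for A549 (603 genes) and -0.07 for BEAS-2B (544 genes) at 5 ng/mL. For genes in the same range of GC content it was 0.32 and 0.05. Ribosomal protein genes, which also have short and abundant transcripts, had a median of 0.25 over 78 measurable entries in A549, with 11 called higher and 13 lower, and 0.16 over 77 in BEAS-2B, with 0 higher and 3 lower. Over all genes tested the medians were 0.11 and 0.03, with 16.1% called higher and 17.1% lower in A549, and 7.33% and 11.6% in BEAS-2B.

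The genes most like each member were taken as those with the smallest root mean square difference of log2 FC over the 4 treated against control comparisons, among the 4193 genes whose ND value reached 7 in every library. The comparisons of a line share its control, so the measure is a description. The nearest to S100A6 were HNRNPF (0.33), TNFAIP2 (0.387) and COTL1 (0.612), and to S100A10 C19orf33 (0.284), CALM3 (0.303) and SUN2 (0.316). S100A11 was nearest to LRRC75A (0.128), ELK3 (0.129) and TSTA3 (0.13), and S100A13 to LGALS1 (0.121), DNAJB1 (0.125) and FAAP20 (0.142). S100A16 was nearest to FAM89B (0.077), COL5A2 (0.117) and NOSIP (0.134). CALM3 had log2 FC of -0.04 in A549 and -1.27 in BEAS-2B at 5 ng/mL. Its call among the EF-hand genes in BEAS-2B and its place beside S100A10 come from the same values, so they are not separate observations.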

How the data were processed

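RNA of A549 and BEAS-2B cells after 48 h at 0, 1 or 5 ng/mL TGF-β1 was made into libraries with a QuantSeq 3′-mRNA kit, 1 per condition. The authors deposited raw read counts, listed by gene symbol, with the same 25737 entries (24462 distinct symbols) in each library. The submitters' processing notes name Bowtie2, bedtools and the build hg19, and the study names ExDEGA; versions, the counting rule, its strand setting and the treatment of reads shared between genes are not given in the sources used here. A gene and a partner on the opposite strand may therefore not be told apart in the counts. Opposite-strand genes that have no entry in the counts overlap S100A6 (BX470102.1) and S100A11 (AL450992.1). AL162258.1, also without an entry, overlaps S100A13 on the same strand.

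Samples were grouped by the cell line and dose in their labels. Total counts ranged from 4120624 to 7841350, and a count of 0 was taken to allow 3 counts, which is 0.383 to 0.728 CPM. Counts were scaled with TMM factors (edgeR 4.0.16, R 4.3.3) and brought to the mean effective library size. The FC used a pseudocount of 1. Ratios with exact 95% Clopper-Pearson intervals used the counts alone. The replicate spread is unknown, and intervals and floors cover counting error only. The steps were tested on simulated data with known changes and counting error only, which cannot show how calls hold against the spread between cultures. Intervals were computed with scipy 1.17.1, tables with pandas 2.3.3 and numpy 2.4.6, and plots with matplotlib 3.10.9, all in Python 3.11.15.

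The members were named by symbol, and the lists of partners, receptors, other EF-hand genes, target genes, flanking genes and cell type markers were written out by name. Members and lists were chosen with earlier results of these data known. From the lists, genes called or at 0 were named, together with ANXA2, AGER, TLR4 and S100A9 as known partners or receptors of members, S100A1 and S100A3 as overlapping genes, and marker genes. The 3 genes nearest to each member were taken from outside the S100 family. Transcripts came from GENCODE v29 (known for 95.6% of the genes used for the trends) and promoters from RefSeq, both on GRCh38. The build differs from that of the counts, so no counted interval is given. Besides these settings, 14 others chosen at the start and 1 chosen after seeing the data were tried. They were DESeq2 1.42.0 size factors, total counts, upper quartile factors, TMM within each line, pseudocounts, thinning, other minimums and FC limits, and removal of the trends over GC content and, as the added one, transcript length. A gene of the target list is not reported here. Protein sequences were not used here.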

Additional observations from a re-analysis of the deposited data

Results flagged for a closer look

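Under the main scaling S100A10 moved in opposite directions in the cell lines at both doses, with only a small difference in A549 at 5 ng/mL. In A549 its ratio to the control was 1.49 at 1 ng/mL and 1.11 at 5 ng/mL, and in BEAS-2B it was 2.83-fold and 3.37-fold lower. The response to 5 ng/mL was 3.73-fold higher in A549 than in BEAS-2B (3.36 to 4.13, counting error only). Each response rests on 1 library per condition, so the difference was not tested against the spread between cultures. The direction in A549 at 5 ng/mL also changed sign under scaling by total counts, at a log2 difference of -0.06, and after removal of the trend over GC content, at -0.08, whereas the decrease in BEAS-2B ranged from a log2 difference of -1.88 to -1.68 over the alternatives.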

How the results depend on the processing

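Of 406 values of single members under the alternatives, 360 moved by less than their counting interval and 46 moved by more, and no called member changed its direction. Under total counts the members' median log2 FC in A549 was -0.06 at 5 ng/mL and 0.41 at 1 ng/mL, and the median of all genes tested at 5 ng/mL went from 0.11 to -0.09 in A549 and from 0.03 to -0.10 in BEAS-2B. With the minimum required in both libraries, 2 members were called between the untreated lines, and the medians in A549 were 0.78 at 5 ng/mL and 0.89 at 1 ng/mL. Under this setting the call of S100P in A549 was lost, which left 5 members called at each dose. With a minimum of 8 the median in BEAS-2B at 5 ng/mL was -0.01. With an FC limit of 1.5, 5 of the 6 members tested were called in BEAS-2B at 5 ng/mL and 5 of 6 at 1 ng/mL. With an FC limit of 3, 3 of 7 members tested were called in A549 and 1 of 6 in BEAS-2B at 1 ng/mL. The shares of all genes called under these other limits and minimums were not computed. These counts therefore show only how the calls of the members depend on the setting. With the trend over GC content removed the medians in A549 were -0.08 at 5 ng/mL and 0.39 at 1 ng/mL, and with the trend over transcript length removed (chosen after seeing the data) the median at 1 ng/mL was 0.47. The cause of these shifts was not tested. The 3 members whose responses differed at least 2-fold between the lines numbered 3 under every scaling alternative run. No paired analysis was possible because the labels give no replicate numbers and the values of each comparison come from 1 library per condition without a test, and no replicate could be left out. A fit over the 6 libraries with the cell line as a block, which takes the lines to respond alike, was not run. Depth limits S100A8, S100A14, S100P after treatment and S100A4 in BEAS-2B, with at most 18 counts per library.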
